A study of Caenorhabditis elegans with 2 samples.

Results

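Divergent promoters on the autosomes are intervals at which protein-coding genes on opposite strands start back to back. A factor bound between their 5′ ends lies upstream of both genes at once. Here such promoters were taken from ChIP-seq of the nuclear hormone receptor NHR-237 in Caenorhabditis elegans embryos. An autosomal peak was a member when its summit lay in the promoter window of genes on both strands. The window of a gene covered the 500 bp before and the 200 bp after the annotated 5′ end of any of its protein-coding transcripts. Of the 1626 peaks that the authors retained by IDR, a procedure that filters peaks by how alike they rank between replicates, 318 were members. They made up 34.9% of the 911 autosomal promoter peaks and 23.3% of the 1363 autosomal peaks. The other 593 autosomal promoter peaks lay in the window of genes on a single strand and are called one-directional.

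All embryos were of strain OP228, with the genotype unc-119(ed3) III; wgIs228, in which the labels describe an insertion that targets nhr-237 and a tag of eGFP. They were mixed-stage, of pooled sexes and used whole, so a peak cannot be assigned to a cell type, and the labelled tissue could not be checked because peak lists hold no measure of expression. There were 2 biological replicates of this single group and no other genotype or treatment. Every comparison below is therefore between classes of peaks, and its p-value treats peaks as units and says nothing of the spread between embryo preparations.

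In the compact genome of C. elegans many neighbouring genes start head to head, and the short sequence between them serves as promoter for both. Most C. elegans mRNAs are trans-spliced: a spliced leader replaces the first bases of the transcript, so an annotated 5′ end often marks the splice acceptor and lies downstream of the point where transcription began. Nuclear hormone receptors are DNA-binding transcription factors, many of which respond to small lipophilic ligands, and the family is greatly expanded in nematodes.

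The sequences below are from the summits of 9 of the 13 members of highest signal; the 4 others, of signals 321 to 455, are not printed here. They are shown as sites where tagged NHR-237 gave most signal between 2 genes. Each is the plus strand of build WBcel235 (ce11), with the minus-strand gene named first. Each reaches up to 75 bases to either side of the summit, trimmed where an annotated exon began. Capitals mark motif matches on either strand. The motifs are GAANNTTC, an inverted pair of the GAA units of heat shock elements, and TTTCAG, the form of a C. elegans splice acceptor. Also marked are CGAGACC and GCGTCTC, which were searched as promoter motifs, and GAGAGA, a GA repeat.
rpl-20 and Y17G9B.5 (chrIV:4749982-4750132): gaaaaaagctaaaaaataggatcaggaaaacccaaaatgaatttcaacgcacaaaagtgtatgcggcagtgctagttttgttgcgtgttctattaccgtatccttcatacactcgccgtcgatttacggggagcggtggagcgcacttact
rpl-15 and K11H12.8 (chrIV:654841-654991): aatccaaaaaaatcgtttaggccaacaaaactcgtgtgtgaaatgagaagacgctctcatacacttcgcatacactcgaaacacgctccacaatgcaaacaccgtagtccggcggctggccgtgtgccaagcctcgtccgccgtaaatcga
drr-2 and set-16 (chrIII:13643659-13643809): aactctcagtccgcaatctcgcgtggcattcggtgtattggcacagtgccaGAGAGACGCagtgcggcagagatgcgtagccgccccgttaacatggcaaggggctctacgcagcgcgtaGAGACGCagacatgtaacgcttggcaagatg
C47E8.4 and hsp-90 (chrV:14685704-14685854): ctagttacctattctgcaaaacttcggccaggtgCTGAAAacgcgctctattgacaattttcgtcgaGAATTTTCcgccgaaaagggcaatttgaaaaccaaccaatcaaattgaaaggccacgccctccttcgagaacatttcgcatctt
hsp-110 and rpn-3 (chrIII:8447096-8447227, 132 bases): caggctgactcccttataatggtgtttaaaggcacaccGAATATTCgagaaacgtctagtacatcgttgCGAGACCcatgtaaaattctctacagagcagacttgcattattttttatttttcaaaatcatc
rpl-12 and lin-54 (chrIV:13240652-13240761, 110 bases): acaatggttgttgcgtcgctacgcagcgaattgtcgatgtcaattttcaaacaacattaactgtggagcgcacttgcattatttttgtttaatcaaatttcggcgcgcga
eef-1A.1 and rfc-4 (chrIII:6972086-6972178, 93 bases): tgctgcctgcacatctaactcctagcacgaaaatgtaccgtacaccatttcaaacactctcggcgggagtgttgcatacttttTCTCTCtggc
Y71H2AM.20 and cox-6B (chrIII:2785976-2786126): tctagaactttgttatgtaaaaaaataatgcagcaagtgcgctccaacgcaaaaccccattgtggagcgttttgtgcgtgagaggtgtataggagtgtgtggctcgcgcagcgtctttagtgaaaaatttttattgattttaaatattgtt
mig-5 and cct-1 (chrII:8185120-8185270): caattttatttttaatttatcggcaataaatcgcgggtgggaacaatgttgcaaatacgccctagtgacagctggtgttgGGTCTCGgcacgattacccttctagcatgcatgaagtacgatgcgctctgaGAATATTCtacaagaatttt

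Among these 9 sequences, GAANNTTC was found at C47E8.4 and hsp-90, at hsp-110 and rpn-3, and at mig-5 and cct-1. CGAGACC was found at hsp-110 and rpn-3 and at mig-5 and cct-1. The sequence of drr-2 and set-16 held 2 matches to GCGTCTC, of which the one on the left overlapped a match to GAGAGA. The pair of C47E8.4 and hsp-90 also held TTTCAG, and that of eef-1A.1 and rfc-4 held GAGAGA. No match to these 5 motifs was in the windows printed for rpl-20 and Y17G9B.5, rpl-15 and K11H12.8, rpl-12 and lin-54, or Y71H2AM.20 and cox-6B.

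The 3 highest signals lay between a ribosomal protein gene and its neighbour. Signal is the authors' value for each peak, in the units of their peak caller and not scaled between lists. The peak between rpl-20, which encodes a protein of the large ribosomal subunit, and Y17G9B.5 had a signal of 306 in replicate 1, 308 in replicate 2 and 604 in the IDR list, where it ranked 12 of 1626. The peak between rpl-15, also of the large subunit, and K11H12.8 had 250 in replicate 1, 299 in replicate 2 and 555 in the IDR list. The peak between ska-3, which encodes a kinetochore protein, and rps-12 of the small subunit followed, with 193 in replicate 1, 264 in replicate 2 and 455 in the IDR list. All 3 were higher in replicate 2 than in replicate 1, which is a difference between unscaled lists.

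The members ranked 4 to 7 by IDR signal had values between 341 and 408. The peak between rps-20 and ekl-4 had 204 in replicate 1, 199 in replicate 2 and 408 in the IDR list. Between drr-2, a homologue of translation factor eIF4H, and set-16, a histone H3 lysine methyltransferase of the MLL type, the signal was 183 in replicate 1, 196 in replicate 2 and 382 in the IDR list. These 2 peaks thus differed little between the replicate lists. The peak between C47E8.4 and hsp-90, which encodes the HSP90 chaperone, had 180 in replicate 1, 167 in replicate 2 and 347 in the IDR list. That between rps-15 and F36A2.9 had 174 in replicate 1, 162 in replicate 2 and 341 in the IDR list. Of these 4 peaks, 3 were higher in replicate 1.

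The members ranked 8 to 12 had IDR signals between 298 and 331. Between hsp-110, a chaperone that acts as exchange factor for HSP70, and rpn-3, a subunit of the proteasome lid, the signal was 124 in replicate 1, 200 in replicate 2 and 331 in the IDR list. Between rpl-12 and lin-54, the DNA-binding subunit of the DREAM repressor complex, it was 145 in replicate 1, 187 in replicate 2 and 327 in the IDR list. Between rps-19 and hsr-9, the homologue of the DNA damage protein 53BP1, it was 175 in replicate 1, 146 in replicate 2 and 321 in the IDR list. Of these 3, only rps-19 and hsr-9 had the higher value in replicate 1. The last of the 12 lay between eef-1A.1, a translation elongation factor, and rfc-4, a subunit of the DNA clamp loader, with 133, 165 and 300 in replicate 1, replicate 2 and the IDR list, and between Y71H2AM.20 and cox-6B, a subunit of cytochrome c oxidase, with 131, 172 and 298. A ribosomal protein gene was the nearest gene on at least 1 strand at 7 of the 12 highest peaks, at 13 of the 30 highest members and at 35 of all 318.

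**Figure D1:**
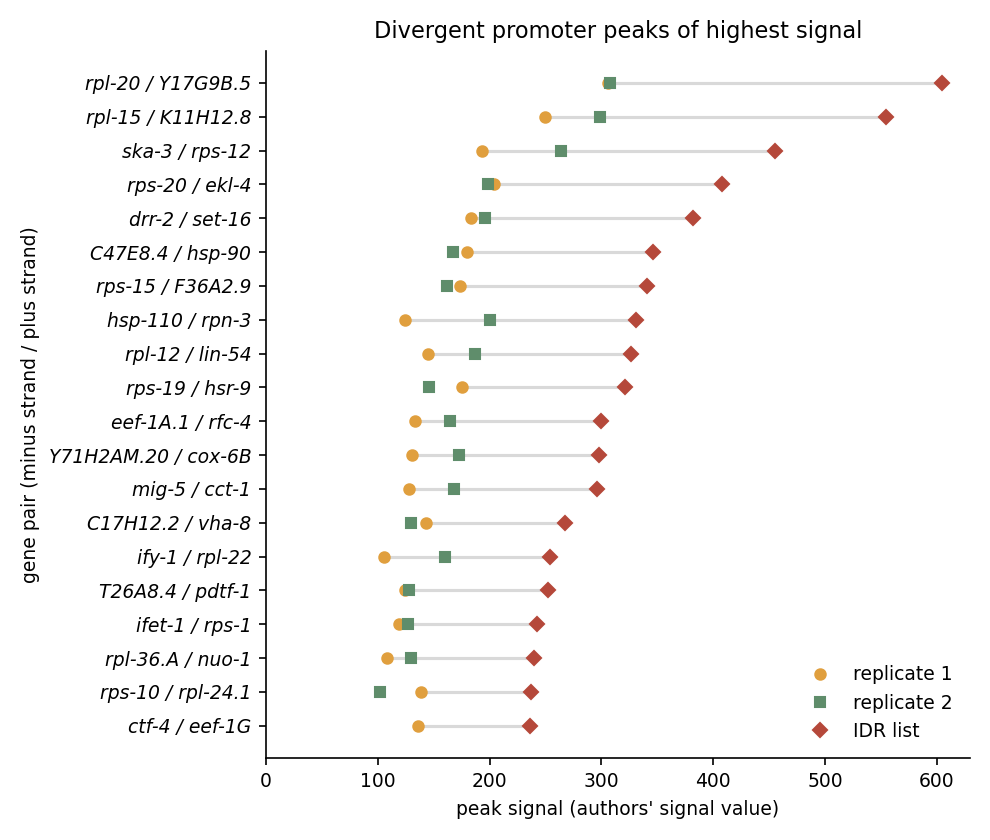
Peak signal (horizontal axis, the authors' signal value) of the 20 divergent promoter peaks of highest signal, by gene pair, in replicate 1 (circles), replicate 2 (squares) and the IDR list (diamonds). The IDR signal runs from 604 at rpl-20 and Y17G9B.5 to 236.6 at ctf-4 and eef-1G, where no replicate 2 peak overlapped and no square is drawn.

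Nearly all members overlapped peaks of both replicate lists, which the choice of IDR peaks largely fixes, so these values describe the members and are no independent check of them. Of the 318 divergent IDR peaks, 315 (99.1%, 95% Clopper-Pearson interval 97.3 to 99.8%) overlapped a peak of each replicate list by at least 1 bp, against 586 of 593 one-directional peaks (98.8%). The replicate lists are long, with 10872 peaks in replicate 1 and 30000 in replicate 2, so overlap alone asks little. Within the 1626 highest peaks of both replicate lists lay 74.5% of members and 69.0% of one-directional peaks. The 3 members without an overlap in both lists, named here after their values were seen, were those of the pairs ctf-4/eef-1G and cpf-1/rpl-26, which had no replicate 2 peak, and of the pair eea-1/gut-2, which had no replicate 1 peak. Across members with both values, replicate 1 and replicate 2 signal had a Spearman correlation of 0.67 (n = 315), beside 0.55 across one-directional peaks (n = 586), as a description across peaks of 2 libraries.

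Divergent peaks had somewhat higher signal than one-directional peaks in the IDR list, but not past the threshold in either replicate list alone. Signal ranged from 73.0 to 604 with a median of 114 in divergent peaks, and from 72.6 to 793 with a median of 104 in one-directional peaks, so the classes overlapped over nearly their whole range. Above the common median of 107 lay 178 of 318 divergent peaks (56.0%, interval 50.3 to 61.5%) and 277 of 593 one-directional peaks (46.7%, interval 42.6 to 50.8%). The odds ratio was 1.45 (95% interval 1.09 to 1.93, adjusted exact p = 0.0248, Fisher's exact test, two-sided, adjusted by Benjamini-Hochberg over signal, width and GC content). With replicate 1 signal the medians were 53.7 in divergent and 50.9 in one-directional peaks, and the odds ratio was 1.25 (adjusted exact p = 0.188). With replicate 2 signal the medians were 60.6 in divergent and 57.5 in one-directional peaks, and the odds ratio was 1.26 (adjusted exact p = 0.169).

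The signal odds ratio was lower when peaks of chosen genes were left out. Without the 35 divergent and 23 one-directional peaks of ribosomal protein genes, the odds ratio was 1.23 (adjusted exact p = 0.503). Without all peaks of the fixed gene lists described below, it was 0.947 (adjusted exact p = 0.849), with medians of 100.1 in divergent peaks (n = 149) and 101.3 in one-directional peaks (n = 429). Both of these alternatives were added after seeing the data. The second took out 53.1% of divergent but 27.7% of one-directional peaks, as either nearest gene of a divergent peak can be listed. What part the genes have in the signal difference was not tested. At ribosomal protein genes alone, signal ranged from 88.8 to 604 with a median of 206 at divergent peaks (n = 35), and from 72.9 to 772 with a median of 163 at one-directional peaks (n = 23). These ranges overlap almost entirely, and the difference at these genes was not tested.

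**Figure D2:**
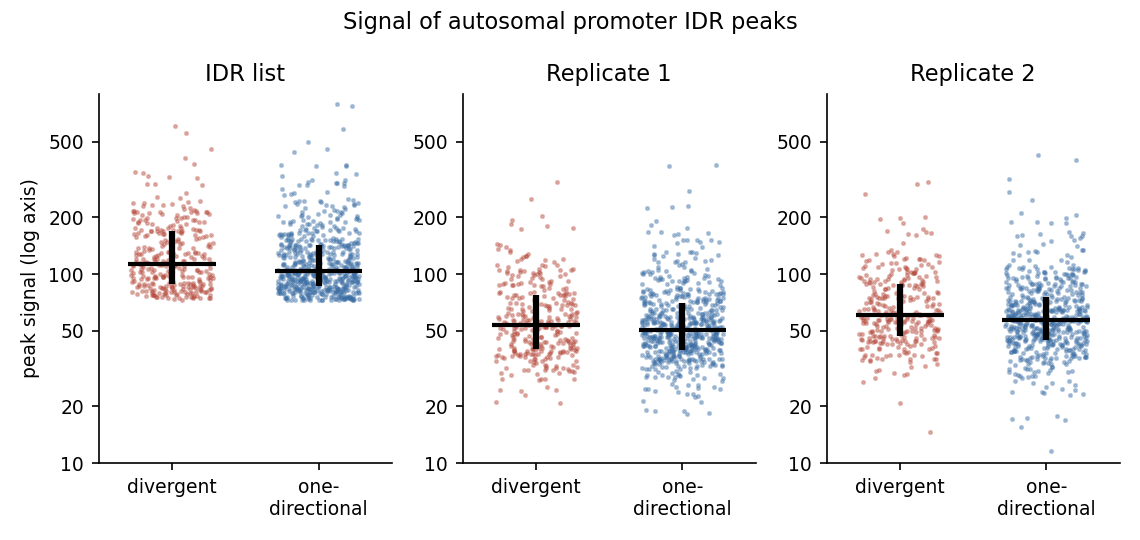
Signal (vertical axes, log scale) of each autosomal promoter IDR peak, divergent on the left and one-directional on the right of each panel, in the IDR list, replicate 1 and replicate 2. Horizontal bars are medians and vertical bars run from the lower to the upper quartile, and the medians of 114 and 104 in the IDR list lie within widely overlapping clouds of points.

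Width and GC content did not separate the classes at the threshold. Most peaks had the same deposited width of 396 bp, so the split counted narrower peaks: 30 of 318 divergent (9.43%) and 38 of 593 one-directional peaks (6.41%), with an odds ratio of 1.52 (95% interval 0.890 to 2.58, adjusted exact p = 0.169). The 30 narrower members had a median signal of 238 and the 288 members of 396 bp a median of 109. In 290 of the 318 members (91.2%) the summit position equals the middle of the peak, which limits how closely it marks the point of highest signal. The sequence from 50 bases before to 50 bases after the summit had a median GC content of 45.5% in both classes, with an odds ratio of 0.975 (95% interval 0.736 to 1.29, adjusted exact p = 0.889). The centres of 1504 autosomal segments that also lie within windows of both strands but hold no IDR summit had a median of 33.7%.

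The paired genes almost always stood head to head, and most summits lay between them. Of the 318 members, 317 had 5′ ends facing away from each other with a gap, and 1 had overlapping 5′ ends. That peak, of signal 95.8, was at rpb-7, a subunit of RNA polymerase II, and Y54E10BR.2, whose 5′ ends gave a distance of -3 bp. The longest distance, 984 bp, was at F22G12.4 and F22G12.5, with a signal of 86.7. The windows used allow distances from -400 to 1000 bp, so these limits are partly set by the rule.

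The distance between the 5′ ends had a median of 399 bp and quartiles of 288 and 564 bp. It was under 200 bp in 33 members, from 200 to under 600 bp in 223 and 600 bp or more in 62. The summit lay between both 5′ ends in 293 of 318 members (92.1%, interval 88.6 to 94.8%). Among the 384 peaks of the authors' pooled list that meet the same rule and that no IDR peak overlapped, it lay between in 307 (79.9%, interval 75.6 to 83.8%). Such weaker peaks had signals of 19.5 to 72.4, below every member, and a median distance of 348.5 bp between 5′ ends. Their genes stood head to head in 379 of 384 (98.7%), close to the 317 of 318 members, so that arrangement is not particular to members.

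Within the interval, summits gathered around the centre. They lay a median of 56 bp from it in the 293 members, beside 62.5 bp in the 307 pooled-list peaks, and within the central 50% of the interval in 222 of 293 (75.8%) and in 216 of 307 (70.4%). The median member lay 141 bp from the nearer 5′ end and 278.5 bp from the farther one. Of the 293, 163 were nearer the plus-strand and 130 nearer the minus-strand 5′ end. No test was made of these positions, which the rule itself limits. Within 50 bp of an annotated 5′ end lay 66 of 318 divergent summits (20.8%) and 65 of 593 one-directional summits (10.96%), where a divergent summit has at least 2 such ends in reach.

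**Figure D3:**
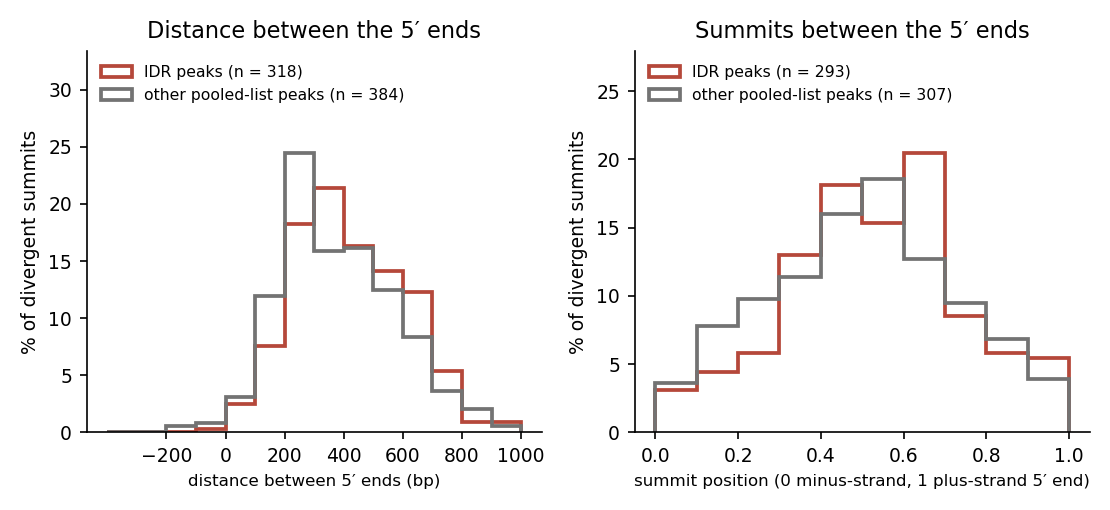
Left, distance between the 5′ ends of the paired genes (bp). Right, position of the summits that lay between them, from 0 at the minus-strand to 1 at the plus-strand 5′ end; vertical axes are percent of divergent summits, for the IDR peaks and for other peaks of the pooled list. Both sets centre near the middle of the interval, with 293 of 318 IDR summits and 307 of 384 other summits drawn on the right.

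Signal was modestly higher at pairs set farther apart. The median IDR signal was 96.2 at distances under 200 bp, 111 from 200 to under 400 bp, 120 from 400 to under 600 bp and 127 at 600 bp and over. The same 4 classes had medians of 47.6, 52.6, 57.2 and 60.7 in replicate 1 and of 55.8, 57.7, 63.2 and 67.9 in replicate 2. The quartiles of all members, 88.4 and 168 in the IDR list, span more than these steps. Across members, the Spearman correlation of distance with signal was 0.14 in the IDR list (n = 318), 0.069 in replicate 1 (n = 317) and 0.18 in replicate 2 (n = 316). Without ribosomal protein gene peaks it was 0.090 (n = 283), 0.0072 in replicate 1 and 0.15 in replicate 2 (n = 282 each). The share of members with a gene of the fixed lists moved with distance too, at 30.3%, 50.8%, 53.6% and 69.4% in the 4 classes from shortest to longest, and its part in the signal was not tested.

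IDR summits were dense where promoter windows of both strands overlap. Such sequence made up 0.819 Mb of the autosomes and held 388 IDR summits per Mb (exact Poisson 95% interval 347 to 433), against 44.8 per Mb (interval 41.3 to 48.6) in promoter sequence of a single strand, a ratio of 8.66. For pooled-list summits that no IDR peak overlapped the values were 469 and 342 per Mb, a ratio of 1.37. The same counts, given as shares, make divergent peaks 34.9% of autosomal promoter IDR peaks and 7.83% of the 4906 other pooled-list promoter peaks. Summit position is what the membership rule uses, so these values are described and were not tested. Counted by segment, 316 of 1820 autosomal segments within windows of both strands held an IDR summit, or 17.4%.

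The share of segments with a summit differed between chromosomes and lengths. It was 24.8% on chromosome III, 22.8% on I, 15.2% on IV, 14.6% on II and 11.5% on V. By length of the segment it was 1.70% under 200 bp (n = 294), 13.8% from 200 to under 400 bp (n = 378), 19.9% from 400 to under 600 bp (n = 583) and 25% from 600 to under 800 bp (n = 560), with 3 of the 5 longer segments also holding one. Length here is that of the sequence within windows of both strands, not the distance between 5′ ends. Pairs near the upper or the lower limit of distance share only a short segment, so these lengths are not the distance classes above. A longer segment offers more positions to a summit, and these shares were not scaled to length. The X chromosome held 10 divergent peaks of its 248 IDR peaks, which are not members.

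The 318 members had 316 distinct pairs of nearest genes. In 2 pairs, aha-1 and C25A1.15 and B0491.6 and pigm-1, there were 2 peaks each. Of the 632 nearest genes, 191 (30.2%) carry only a sequence name, against 44.6% of the 17242 autosomal protein-coding genes. Counting every gene whose window held a member's summit, 641 autosomal genes had a divergent peak, or 3.72%. Of the 3615 genes whose window overlaps an opposite-strand window, and which could therefore have one, they were 17.7%. At 49 members the summit was also in the window of a noncoding gene. By annotated class these were 47 ncRNA, 7 piRNA, 7 snoRNA, 1 snRNA and 1 miRNA genes. No matching share for other promoter peaks is given here, so these counts only describe the members.

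Of the 20 gene lists examined, cytosolic ribosomal protein genes had the highest share with a divergent peak. The gene lists below were chosen with earlier results of these data known, so their shares are read only beside the 17.7% of all genes in reach. Of 48 cytosolic ribosomal protein genes in reach, 38 (79.2%, interval 65.0 to 89.5%) had a divergent peak, with signals up to 604 and a median of 212. Of the 31 ribosomal protein genes out of reach of an opposite-strand window, 21 (67.7%) had a one-directional IDR peak, against 3.66% of all 13627 such genes. Ribosomal protein genes thus held peaks at a high share in both settings.

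In 3 pairs both genes encode cytosolic ribosomal proteins. The peak of rps-10 and rpl-24.1 had 139 in replicate 1, 102 in replicate 2 and 237.03 in the IDR list. That of rpl-39 and rps-30 had 104 in replicate 1, 112 in replicate 2 and 215 in the IDR list. That of rps-14 and rpl-36 had 102 in replicate 1, 109 in replicate 2 and 213 in the IDR list. All 3 were above the upper quartile of members, 168, and each joins a gene of the small subunit to one of the large subunit.

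Translation factors, proteasome subunits and chaperones also had shares above that of all genes in reach. For translation factors the count was 14 of 27 (51.9%), led by eef-1A.1 and followed by ifet-1, the eIF4E-binding repressor paired with rps-1, at a signal of 242, and by eef-1G, paired with ctf-4, at 236.6. For proteasome subunits it was 14 of 22 (63.6%), led by rpn-3 and followed by rpn-9 at 208 and rpn-5 at 139. For chaperones it was 15 of 30 (50%), led by hsp-90 and hsp-110 and followed by cct-1, a subunit of the chaperonin CCT paired with the Dishevelled homologue mig-5, at 296. Ubiquitin pathway genes were near the share of all genes, at 5 of 22 (22.7%, interval 7.82 to 45.4%), with ubq-2 at 139, ubr-4 at 114 and the conjugating enzyme gene ubc-18 at 98.8.

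Mitochondrial genes were divided between high and low signals. Of 30 genes of the mitochondrial ribosome and of protein import, 13 (43.3%) had a divergent peak, with a median signal of 94.4; the highest were mrps-7 at 216, mrpl-49, paired with rpl-28, at 198 and mrpl-17 at 112. Of 20 genes of the respiratory chain and ATP synthase, 8 (40%) had one, with a median of 161. They were led by cox-6B and by nuo-1, a subunit of complex I paired with rpl-36.A, at 240, with atp-1 of the ATP synthase at 179. Aminoacyl-tRNA synthetases were at 2 of 12 (16.7%, interval 2.09 to 48.4%), ears-2 at 211 and nars-1 at 80.9.

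Genes of RNA handling and transport followed. Splicing and RNA processing genes were at 23 of 51 (45.1%), led by the splicing factor gene rsp-3 at 232, the poly(A)-binding protein gene pabp-2 at 216 and syf-2 at 193. Genes of the nuclear pore and nuclear transport were at 9 of 22 (40.9%), led by imb-1, which encodes importin beta, at 193, npp-3 at 171 and npp-7 at 166. RNA polymerase and general transcription genes were at 7 of 20 (35%), led by the Mediator gene mdt-18 at 157, rpb-3 at 137, whose pair is the proteasome gene pas-4, and mdt-9 at 128. Intervals for lists of this size are wide, for example 15.4 to 59.2% for the last.

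Of the lists of membrane traffic, the cell cycle and the cytoskeleton, only that of vacuolar ATPase and Vps genes had an interval above 17.7%, the share of all genes in reach. Its interval was 26.0 to 74.0%. The intervals of the secretory (11.6 to 47.8%), cell cycle (15.3 to 41.8%) and cytoskeletal lists (5.04 to 53.8%) held that share. The vacuolar ATPase and Vps genes were at 9 of 18 (50%), with vha-8 at 267, vps-51 at 213, whose pair is the Rb homologue lin-35, and vha-1 at 164. Secretory pathway genes were at 7 of 26 (26.9%); rab-18, a small GTPase gene, was at 236, and sec-61.B and trap-3, which encode parts of the translocon of the endoplasmic reticulum, share a peak of 229. Cell cycle and replication genes were at 13 of 48 (27.1%), led by rfc-4, with the replication gene mcm-10 at 175 and the kinetochore gene knl-3 at 172. Cytoskeletal genes were at 3 of 13 (23.1%), the capping protein gene cap-2 at 183, the beta-tubulin gene tbb-1 at 148 and the dynein chain gene dli-1 at 83.2.

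The chemosensory receptor list was below the share of all genes in reach, and the 4 lists given with it here were near that share. Histone and chromatin genes were at 12 of 78 (15.4%, interval 8.21 to 25.3%), though set-16, lin-54 and lin-35 had signals of 382, 327 and 213. Collagen genes were at 4 of 29 (13.8%, interval 3.89 to 31.7%), with col-38, paired with rpl-5, at 210, col-2 at 127 and bli-6 at 120. Developmental transcription factors were at 2 of 16 (12.5%, interval 1.55 to 38.3%), ceh-38 at 228 and zip-4 at 162, and nuclear hormone receptors at 2 of 19 (10.5%, interval 1.301 to 33.1%), nhr-47 at 137 and nhr-142 at 104. Chemosensory receptor genes were at 2 of 129 (1.55%, interval 0.188 to 5.49%), with sri-5, paired with rsr-1, at 171. Genes in no list were at 439 of 2936 (15.0%).

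**Figure D4:**
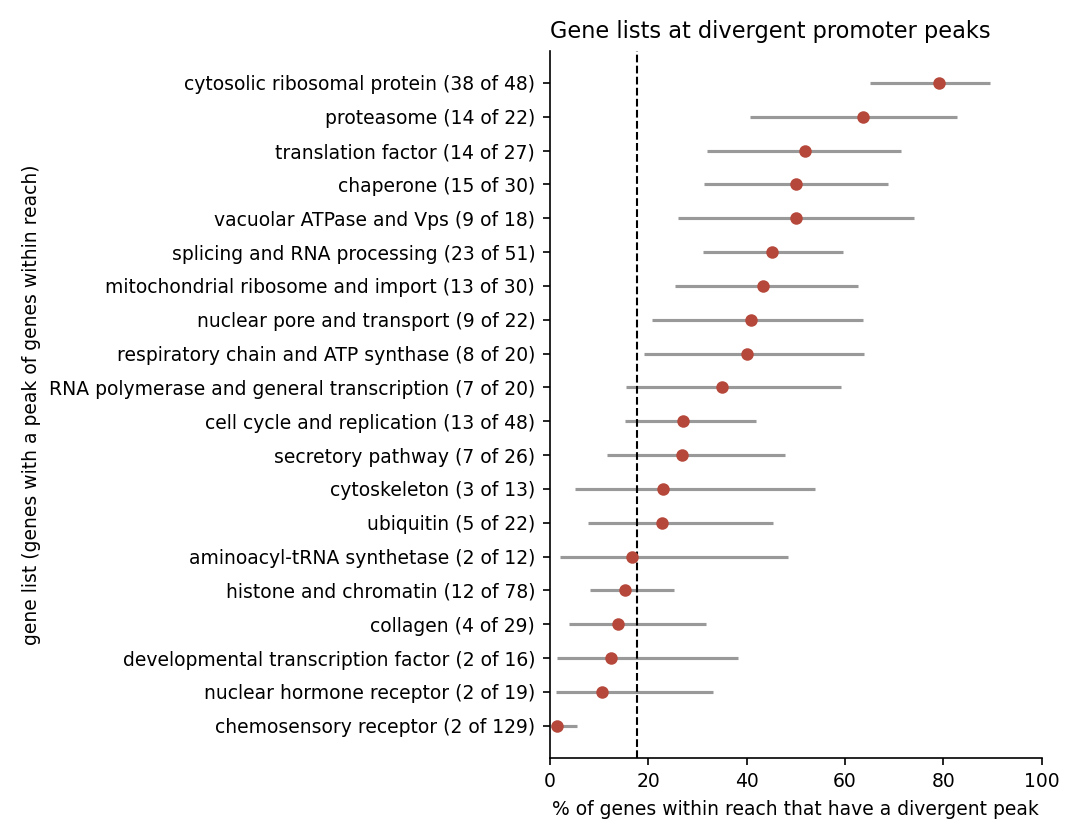
Percent of the genes within reach of an opposite-strand promoter window that had a divergent peak (horizontal axis), for the 20 gene lists, with 95% Clopper-Pearson intervals; counts are beside each name. The dashed line marks 17.7% for all autosomal protein-coding genes in reach, with cytosolic ribosomal protein genes highest at 79.2% and chemosensory receptor genes lowest at 1.55%.

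A gene can owe its peak to the gene across the interval, since both share it. At 30 members both nearest genes were in a list, at 139 a single gene was and at 149 none was, with median signals of 138, 127 and 100.1. One-directional peaks with a listed gene had a median of 114 (n = 164) and those without one 101.3 (n = 429). A listed gene was present at 53.1% of divergent and 27.7% of one-directional peaks, but a divergent peak has 2 nearest genes; per nearest gene the shares were 31.3% (199 of 636) and 27.7% (164 of 593). Where a single gene was listed and the summit lay between, the summit was nearer the listed gene in 50 and nearer the other gene in 80, at medians of 251.5 bp from the listed and 196.5 bp from the other gene. For pairs with a single ribosomal protein gene it was nearer that gene in 9 and nearer the other in 22, at medians of 283 and 181 bp.

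Motifs GAANNTTC and TTTCAG were more frequent at divergent than at one-directional summits. The 20 motifs, searched on both strands up to 50 bases from each summit, with each window counted once, gave 2 calls, or 10%, by Fisher's exact test, two-sided, with Benjamini-Hochberg adjustment over the 20. GAANNTTC was in 31 of 318 divergent (9.75%) and 26 of 593 one-directional windows (4.38%), with an odds ratio of 2.35 (95% interval 1.32 to 4.21, adjusted exact p = 0.0381). TTTCAG was in 36 divergent (11.3%) and 34 one-directional windows (5.73%), with an odds ratio of 2.10 (95% interval 1.25 to 3.54, adjusted exact p = 0.0381). In the upper 813 IDR peaks by signal the odds ratios were of like size, 2.14 for GAANNTTC and 2.24 for TTTCAG, with fewer peaks and no call (adjusted exact p = 0.399 for both). With windows of 300 and 100 bp they were 1.20 and 1.28 (adjusted exact p = 1 for both). Without peaks of listed genes they were 2.12 and 1.33 (adjusted exact p = 0.556 and 0.761).

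The centres of the 1504 segments within windows of both strands but with no IDR summit held TTTCAG in 16.9% and GAANNTTC in 7.05%. The divergent share of TTTCAG was thus below that of such segments and that of GAANNTTC above it, with no test made. These segment centres had a lower median GC content (33.7%) than divergent summits (45.5%), and the shares were not matched for it. At the 452 autosomal IDR summits outside promoters, TTTCAG was in 6.42% and GAANNTTC in 2.65%. Of the windows with TTTCAG, 1 of 36 divergent and 1 of 34 one-directional had it directly before an annotated 5′ end of the same strand, where a trans-splice acceptor would lie. Members with GAANNTTC had a median signal of 114 and those without it 113.5 (n = 31 with it).

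The other motifs did not pass the threshold as reported, though some did in other settings. CGAGACC was in 45 divergent (14.2%) and 51 one-directional windows (8.60%), with an odds ratio of 1.75 (95% interval 1.11 to 2.74, adjusted exact p = 0.0621), beside 2.33% of segment centres without an IDR summit. GAGAGA was in 44 divergent (13.8%) and 122 one-directional windows (20.6%), with an odds ratio of 0.620 (95% interval 0.416 to 0.913, adjusted exact p = 0.0621), beside 46.2% of the 452 autosomal IDR summits outside promoters. GCGTCTC was in 28 divergent (8.81%) and 75 one-directional windows (12.6%), beside 1.26% of segment centres without an IDR summit (adjusted exact p = 0.397 between the classes). AGGTCA, the core of many nuclear receptor sites, was in 2 divergent (0.629%) and 9 one-directional windows (1.52%), beside 2.53% of segment centres without an IDR summit (adjusted exact p = 0.680 between the classes). GAGAGA passed in 5 of the 10 other settings (adjusted exact p from 0.00451 to 0.0462 there), each time lower at divergent summits, and CGAGACC in 4 (0.00415 to 0.0496), each time higher. At the 452 autosomal IDR summits outside promoters, CGAGACC was in 1.33%, GCGTCTC in 14.2% and AGGTCA in 2.21%. For GAGAGA the share at segment centres without an IDR summit was 7.18%, below that of divergent summits. Segment centres without an IDR summit had lower GC content, as given above, and their shares were not matched for it. A match is a description of these letters in the window and not evidence of binding through them.

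**Figure D5:**
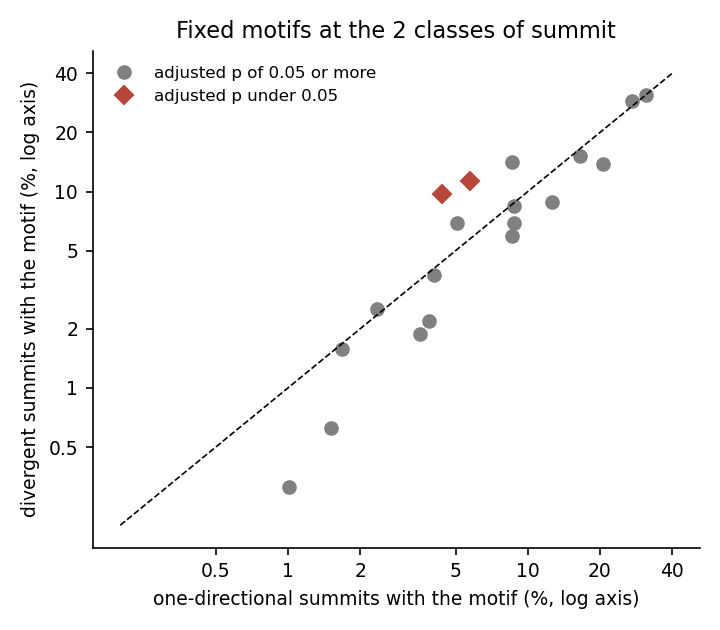
Percent of divergent summits (vertical axis) against percent of one-directional summits (horizontal axis) with each motif within 50 bases of the summit, on log axes, for the 19 of 20 motifs found in either class; the dashed line marks equal shares. The 2 diamonds above the line are GAANNTTC, at 9.75% and 4.38%, and TTTCAG, at 11.3% and 5.73%.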

How the data were processed

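Per the labels, NHR-237 carrying eGFP was precipitated from embryos of mixed stage in 2 biological replicates of 1 group; the antibody entry reads nhr-237. The authors deposited peak lists per replicate, pooled and by IDR; the signal of each peak is the value their caller wrote, deposited with no scaling between lists. The sources used here do not name their caller, aligner or IDR threshold, read depth is unknown, and the control alignment and ce10 lists were not analysed here.

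Summits on ce11 were placed in promoter windows of Ensembl release 115 (WBcel235), whose sequence is from RefSeq. Classes were compared by Fisher's exact test, two-sided, at the common median (for width, below it), with exact conditional intervals (Python 3.11.15, scipy 1.17.1), after the code was tested on simulated data. Positions, densities and gene lists are described without tests, and intervals cover counting error only. Alternatives used the signal of a single replicate at the same IDR peaks, changed windows, summits, classes and splits, or removed peaks.

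Members, lists, motifs and tests were chosen with earlier results of these data known; list patterns were narrowed after the files were read, and 1 entry was removed after values were seen. Named are the genes at the 12 highest members, up to 3 per list, the pairs with both genes listed (up to 12) and the shortest and longest distances. Sequences are those of the highest members with the summit between the 5′ ends, except 3 members on a chromosome not printed here. A second chemosensory receptor gene and 1 sequence under this rule are not reported.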

Additional observations from a re-analysis of the deposited data

How the results depend on the processing

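The signal odds ratio of 1.45 kept its direction but not its call with a single replicate's signal (1.25 to 1.26). The IDR peaks, chosen from both replicates, stayed the same there. Direction without a call was also seen among the 813 IDR peaks of higher signal (1.49) and with windows of 300 and 100 bp (1.21). It was likewise seen without ribosomal protein gene peaks (1.23). The signal odds ratio turned to 0.947 without peaks of any listed gene. The other 6 settings gave 1.45 to 1.67. Of these, the peak midpoint gave the same counts as the reported setting (178 of 318 and 277 of 593). Keeping 1 peak per pair or gene left 316 divergent and 583 one-directional peaks, so neither setting could move the value much. The width odds ratio of 1.52 passed the threshold with windows of 1000 and 200 bp (1.77, adjusted exact p = 0.0364) and turned to 0.536 without listed genes. The GC odds ratio turned to 1.04 when one-directional peaks with an opposite-strand gene of any class were left out; no setting gave a call for it. The 2 motif calls, GAANNTTC and TTTCAG, became 4 with windows of 1000 and 200 bp or with the summit between the 5′ ends (GAGAGA and CGAGACC gained), and 4 with 100 bases to either side of the summit (GAGAGA and a run of T gained). They became 3 at the peak midpoint (GAGAGA gained), and 3 without one-directional peaks that face any gene or without ribosomal protein gene peaks (CGAGACC gained). With windows of 300 and 100 bp the 2 calls were other motifs, GAGAGA and CCCGCC. There were 0 among the higher 813 peaks (2 at an unadjusted p under 0.05) and 0 without listed genes (1 at an unadjusted p under 0.05), by Fisher's exact test. Both removals of genes were chosen after seeing the data. The cause of each change was not tested. No paired analysis was possible because there is a single group. Each list gives signal without read counts, so depth per peak is unknown.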
